A study of Homo sapiens with 10 samples.

Results

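The WNT ligands, the Frizzled receptors and the secreted antagonists of the DKK and SFRP families were described in PC3 cells, a human prostate cancer line established from a bone metastasis, with and without activation of the liver X receptors (LXRs). The members were taken by symbol: WNT followed by a number and, where present, A or B, FZD followed by a number, DKK1 to DKK4 and SFRP1 to SFRP5, with pseudogenes and antisense genes left out. This gave 37 of the 62656 genes of the deposited table, of which 19 were WNT ligands, 10 were Frizzled receptors and 8 were DKK or SFRP antagonists. SFRP3 is listed under its symbol FRZB, which the choice by symbol does not take. FRZB stood at 0.0587 RPKM as a mean over all libraries and was counted among the other pathway genes.

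All cells were starved overnight and then kept for 24 h in RPMI-1640 with L-glutamine and either 1 µM of GW3965, a synthetic LXR agonist, or DMSO, its vehicle. There were 5 libraries of each condition, all from 1 cell line in culture. Nothing in the labels says whether the 5 libraries came from separate cultures, so the p-values measure the spread between these libraries, which may be technical. The comparison asks which genes of these families have another transcript level when LXRs are activated. Levels are given in RPKM, a read number divided by gene length and by a factor of the library, so they can be compared between genes as levels per length. A difference is given as GW3965 minus DMSO on the scale log2(RPKM + 0.1), which understates changes of genes near 0.

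WNT proteins are secreted lipid-modified ligands that bind Frizzled receptors on the cell surface. Together with the co-receptors LRP5 and LRP6, a WNT bound to a Frizzled keeps beta-catenin from being degraded, and beta-catenin then acts with TCF and LEF factors on target genes, while other WNT signals, such as those of WNT5A, act mainly without beta-catenin. DKK1 blocks the LRP co-receptors and SFRP proteins bind WNTs outside the cell. In the prostate and in bone this balance is known for its part in gland formation and in bone formation, and DKK1 released by prostate cancer cells is known to inhibit osteoblasts.

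The reads behind the RPKM values could be recovered as whole numbers, and the libraries held 30439925 to 41648213 reads. The epithelial label was met by the keratin genes KRT8, KRT18 and KRT19 (36.6, 49.6 and 149 RPKM as means over 10 libraries), while CDH1 stood at 0.285 RPKM and the prostate gene KLK3 was listed at 0 in every library. The summed RPKM of the leukocyte markers PTPRC, CD3E and CD68 was at most 0.0962 in a library, and that of 6 fibroblast markers was 3.09 to 5.80 in DMSO and 2.86 to 5.79 in GW3965, most of it COL3A1, with DCN at 0.00476. The known LXR target genes ABCA1, ABCG1, SREBF1 and MYLIP were all higher with GW3965, by 2.29, 2.13, 0.74 and 0.74 on the log2 scale (4 of 4 past the threshold, adjusted p from 0.000124 to 0.00714). SREBF1 and MYLIP did not pass it without DMSO library 1 and GW3965 libraries 1 and 2 (adjusted p = 0.0897 and 0.101), and SREBF1 also not when DMSO library 4 was left out with them (adjusted p = 0.0546). These 3 libraries lay at one end of the first principal component of the most variable genes, computed without the members, which held 48.5% of the variance. Their scores were -8.09, -9.86 and -9.15, those of the other libraries -2.67 to 10.16. Each result below was therefore also computed without them.

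Each family was carried by few of its members. DKK1 made up 99.8 to 99.9% of the summed RPKM of the 8 antagonists in a library, FZD8 made up 48.2 to 58.2% of that of the 10 Frizzleds, and WNT7A 31.1 to 46.2% of that of the 19 WNTs. The summed level was 248.8 to 334.3 RPKM for the antagonists, 134.0 to 160.7 RPKM for the Frizzleds and 21.0 to 29.5 RPKM for the WNTs. Of the 37 members, 15 had a mean of at least 0.5 RPKM and were tested: 6 WNTs, 8 Frizzleds and DKK1. The other 22 were below this filter.

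**Figure D1:**
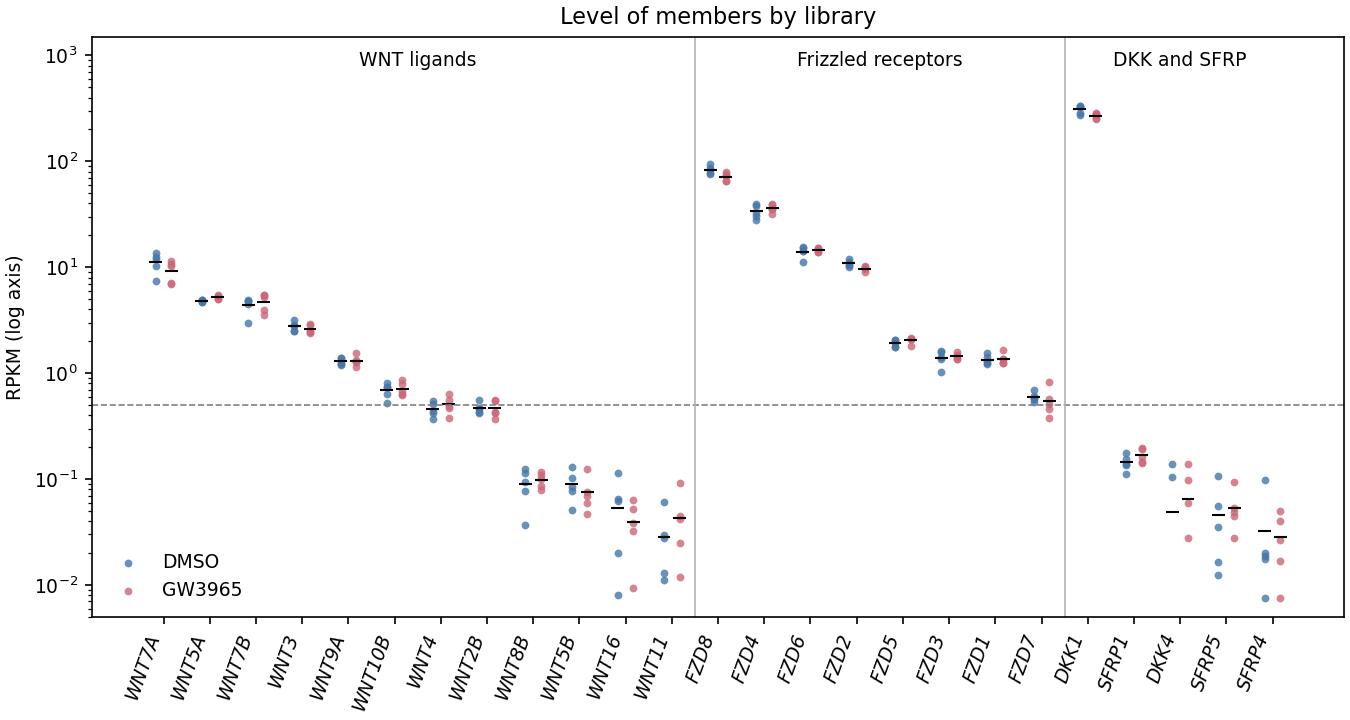
RPKM on a log axis of the 25 members with a mean of at least 0.03 RPKM, with 1 point per library (5 DMSO in blue, 5 GW3965 in red), means as black bars and the filter of 0.5 RPKM as a dashed line; libraries at 0 are not drawn but count in the means. DKK1 stands above all other members, and of the antagonists it alone lies above the filter.

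None of the 15 tested members passed the threshold of an adjusted p of 0.05 (limma, Benjamini-Hochberg over all 20402 tested genes, two-sided). Over all tested genes, 32 passed it (0.157%), 30 of them higher and 2 lower with GW3965. Without 1 library at a time this count was 17 to 38. With limma's voom on the recovered reads, the count of members was also 0. Before adjustment, 4 of the 15 members had a p under 0.05 (26.7%), against 6.99% of all tested genes: FZD8, DKK1 and FZD2 with negative and WNT5A with positive differences. The groups of libraries did not overlap for 1 member, WNT5A (6.67%), against 1.84% of all tested genes. The differences were positive for 9 members and negative for 6, with a median of 0.03 on the log2 scale, against 0.0034 over all tested genes. The lowest adjusted p of a member was 0.563. The 95% intervals of the 15 differences lay within -0.67 and 0.46 on the log2 scale, which is -37.3% to 37.5% in level, and the widest of them was that of FZD7. As in any bulk RNA, fewer expressing cells and less RNA per cell could not be told apart.

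**Figure D2:**
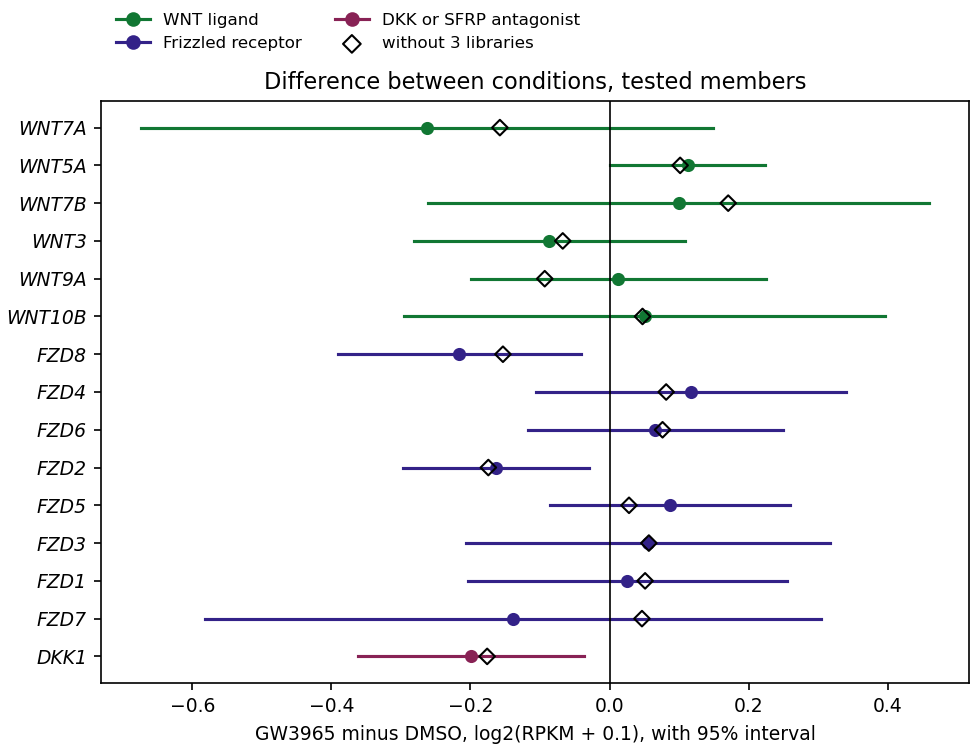
Difference between GW3965 and DMSO on the log2(RPKM + 0.1) scale of the 15 tested members, as limma estimates with 95% intervals (5 libraries per condition); diamonds give the estimate without DMSO library 1 and GW3965 libraries 1 and 2. The intervals of FZD8, FZD2, DKK1 and WNT5A leave out 0, but none of these differences passed the threshold after adjustment.

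Among the secreted antagonists, DKK1 was the most abundant, at rank 172 of the whole table by mean RPKM. The gene lies at chr10:52314296-52318042 on the + strand (hg38, GENCODE). The level of DKK1 was 276, 330, 334, 324 and 286 RPKM in DMSO libraries 1 to 5 and 255, 248, 277, 282 and 285 RPKM in GW3965 libraries 1 to 5. DMSO libraries 2, 3 and 4 were the highest and GW3965 libraries 1 and 2 the lowest, followed by DMSO library 1, so the groups overlapped. The mean was 309.9 ± 27.1 RPKM in DMSO and 269.5 ± 16.7 RPKM in GW3965 (SD, n = 5 each). The difference was -0.20 on the log2 scale (SE 0.07, 95% interval -0.36 to -0.04, adjusted p = 0.568 in limma). Without the 3 libraries at one end of the first component, in which DKK1 was lowest, it was -0.18 (adjusted p = 0.435), and with the component as a covariate it was -0.17 (adjusted p = 0.118). DKK1 rested on 19245 to 31040 reads per library, and its spread within a group (0.11 on the log2 scale) was far above the counting error of 0.0095.

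The 250 bases before the RefSeq start of DKK1, and those of FZD8, the most abundant Frizzled, are shown because these are the most abundant antagonist and receptor. The letters in capitals mark TATAAA, the core of the TATA box, and CTTTGTT, a form of the binding motif of TCF and LEF factors. Both windows are from RefSeq (GRCh38.p14) and are written on the strand of the gene.
DKK1 (chr10:52314031-52314280, + strand): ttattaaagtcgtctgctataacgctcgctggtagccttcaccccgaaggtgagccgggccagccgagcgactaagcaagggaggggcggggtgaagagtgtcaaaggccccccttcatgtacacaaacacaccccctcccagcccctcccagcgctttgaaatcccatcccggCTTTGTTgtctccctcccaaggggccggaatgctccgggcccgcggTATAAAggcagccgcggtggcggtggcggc
FZD8 (chr10:35642297-35642546, - strand): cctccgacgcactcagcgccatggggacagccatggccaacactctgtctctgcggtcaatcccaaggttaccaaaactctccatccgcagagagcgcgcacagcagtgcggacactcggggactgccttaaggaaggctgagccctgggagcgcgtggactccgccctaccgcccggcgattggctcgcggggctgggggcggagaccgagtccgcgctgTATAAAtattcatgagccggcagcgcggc

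TATAAA began 30 bases before the start in DKK1 and 29 bases before it in FZD8. It was looked for after these windows had been read. Windows were at hand for 25 of the 37 members (28 windows), and 3 of them held TATAAA on either strand, those of DKK1, FZD8 and WNT5B, against 10.7% of all 35116 windows. CTTTGTT was found in the window of DKK1, 76 bases before the start, and in no other member (4.5% of all windows). CTTTGAT, another form of the motif, was in no member (2.26% of all windows). The motif of LXR with its partner RXR, AGGTCA repeated in the same direction after 4 bases, was in no member window and in 5 of all windows (0.0142%), while the single AGGTCA, which every such repeat also holds, was in WNT16 (12.1% of all windows). The motifs did not overlap each other in the 2 windows shown. All searches covered both strands, and the absence of these letters from a window says nothing about binding elsewhere. CG dinucleotides numbered 14 to 44 (median 25) in the 10 windows of tested members, 3 to 40 (median 22) in the 18 windows of members under the filter, and had a median of 11 over all windows.

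The other antagonists were all below the filter, with means over all libraries of 0.155 RPKM or less. SFRP1, which binds WNTs and is often silenced in tumours, stood at 0.144 ± 0.025 RPKM in DMSO and 0.167 ± 0.026 RPKM in GW3965 (SD, n = 5 each), from 16 to 36 reads per library. DKK4, SFRP5, SFRP4 and DKK3 had means over all libraries of 0.0566, 0.0497, 0.0304 and 0.0223 RPKM. DKK2 and SFRP2 had 2 reads each in all 10 libraries together. None of these 7 genes was tested.

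Among the Frizzleds the order of mean levels was FZD8, FZD4, FZD6, FZD2, FZD5, FZD3, FZD1 and FZD7. The ranges over all 10 libraries did not overlap between FZD8 (64.5 to 93.5 RPKM), FZD4 (28.2 to 39.8 RPKM) and FZD6 (11.3 to 15.4 RPKM). The range of FZD2 (9.05 to 12.1 RPKM) met that of FZD6. FZD5 (1.77 to 2.13 RPKM) lay above FZD3 (1.02 to 1.61 RPKM) and FZD1 (1.21 to 1.64 RPKM), whose order could not be told, and FZD7 (0.378 to 0.818 RPKM) was the lowest of those tested.

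FZD8, a WNT receptor closely related to FZD5, lies at chr10:35638249-35642278 on the - strand. It shares exon sequence with MIR4683, a microRNA gene on the same strand, which counting by strand would not separate. The level of FZD8 was 76.8, 76.4, 86.3, 93.5 and 83.3 RPKM in DMSO libraries 1 to 5 and 65.5, 64.5, 79.9, 75.3 and 73.2 RPKM in GW3965 libraries 1 to 5. The 3 highest libraries were DMSO libraries and the lowest were GW3965 libraries 1 and 2, with an overlap made by GW3965 library 3. The difference was -0.22 on the log2 scale (SE 0.08, 95% interval -0.39 to -0.04, adjusted p = 0.563 in limma). It was -0.15 without the 3 libraries at one end of the component (adjusted p = 0.559). FZD8 passed the threshold under quantile normalization, at -0.26 (adjusted p = 0.0387 in limma).

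FZD2 lies at chr17:44557459-44559570 on the + strand and is known as a receptor of WNT5A. It was at 10.4, 10.6, 12.1, 11.2 and 10.1 RPKM in the DMSO libraries and at 9.57, 9.74, 9.97, 9.05 and 10.2 RPKM in the GW3965 libraries. Only GW3965 library 5 reached into the range of the DMSO libraries. The difference was -0.16 on the log2 scale (SE 0.06, adjusted p = 0.571 in limma), and -0.17 without the 3 libraries (adjusted p = 0.513).

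FZD4, the receptor of Norrin as well as of WNTs, was at 38.0, 28.2, 30.3, 39.4 and 32.2 RPKM in DMSO and at 39.8, 39.0, 35.5, 35.3 and 31.7 RPKM in GW3965. The groups overlapped over most of their range, and the difference, the highest of the tested Frizzleds over all 10 libraries, was 0.12 on the log2 scale (SE 0.10, adjusted p = 0.898 in limma). It was 0.057 without DMSO library 2 and 0.18 without DMSO library 4. FZD4 shares exon sequence with PRSS23 on the other strand, as do DKK1 with PRKG1-AS1 and FZD6 with BAALC-AS1, and whether the counting used strand is not stated, so their reads could not be told apart. FZD6, which is known for planar cell polarity, was at 15.4, 14.1, 15.0, 11.3 and 14.2 RPKM in DMSO and at 14.8, 15.2, 13.9, 13.8 and 15.2 RPKM in GW3965. Its lowest library was DMSO library 4, which also had the highest score on the first component, and the difference was 0.07 (SE 0.08, adjusted p = 0.944 in limma). The differences of FZD5, FZD3 and FZD1 were between 0.03 and 0.09, and that of FZD7 was -0.14 (SE 0.20), with adjusted p-values of 0.906 or more. FZD9 had 4 reads in all libraries together. FZD10 had none, which with 3 reads as the limit allows up to 0.0216 to 0.0302 RPKM in a library, for counting error only.

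Among the WNT ligands the order was WNT7A, WNT5A, WNT7B, WNT3, WNT9A and WNT10B. WNT7A (6.98 to 13.6 RPKM) lay above WNT5A (4.65 to 5.43 RPKM) in every library, while the ranges of WNT5A and WNT7B (2.98 to 5.43 RPKM) and of WNT7B and WNT3 (2.37 to 3.20 RPKM) overlapped. WNT9A (1.14 to 1.53 RPKM) and WNT10B (0.523 to 0.863 RPKM) were lower.

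WNT5A, the main ligand of signalling without beta-catenin, lies at chr3:55465715-55490539 on the - strand. It was at 4.94, 4.65, 4.71, 4.92 and 4.91 RPKM in DMSO libraries 1 to 5 and at 5.39, 5.27, 4.99, 5.43 and 5.05 RPKM in GW3965 libraries 1 to 5. The lowest GW3965 library, library 3, still exceeded the highest DMSO library, library 1. The means were 4.83 ± 0.14 and 5.23 ± 0.20 RPKM (SD, n = 5 each), a difference of 0.11 on the log2 scale (SE 0.05, 95% interval 0.0012 to 0.22, adjusted p = 0.711 in limma). It was 0.10 without the 3 libraries (adjusted p = 0.658). The separation of the groups went with a very small spread: within a group the SD was 0.047 on the log2 scale, near the counting error of 0.040, and only 0.319% of the tested genes had a smaller one. WNT5A-AS1, a gene on the other strand inside WNT5A (chr3:55487699-55488308), shares no exon with it. This antisense gene was listed at 5.22 ± 0.79 RPKM in DMSO and at 6.49 ± 0.37 RPKM in GW3965 (SD, n = 5 each), a difference of 0.32 (SE 0.10, adjusted p = 0.396 in limma). Whether the counting used strand is not stated, so reads of unspliced WNT5A RNA at this place could not be told apart from its own.

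WNT7A lies at chr3:13816258-13880121 on the - strand and, with WNT7B, is known for signalling through RECK and ADGRA2. It was at 7.44, 12.4, 13.6, 12.1 and 10.2 RPKM in DMSO and at 6.98, 7.12, 10.7, 10.2 and 11.5 RPKM in GW3965. The lowest libraries were DMSO library 1 and GW3965 libraries 1 and 2. The difference, the lowest of the tested members over all 10 libraries, was -0.26 (SE 0.19, 95% interval -0.67 to 0.15, adjusted p = 0.860 in limma), and -0.16 without these 3 libraries (SE 0.10, adjusted p = 0.660), where DKK1 (-0.18) and FZD2 (-0.17) were lower.

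WNT7B, at chr22:45920362-45977129 on the - strand, was at 2.98, 4.50, 4.84, 4.84 and 4.88 RPKM in DMSO and at 3.97, 3.54, 5.43, 5.25 and 5.43 RPKM in GW3965. The same 3 libraries were again the lowest, and within the other 7 the 3 GW3965 libraries lay above the 4 DMSO libraries. The difference was 0.10 (SE 0.16, adjusted p = 0.957 in limma) over all libraries and 0.17 (SE 0.06, adjusted p = 0.407) without the 3.

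Between the 3 libraries and the other 7, the levels of WNT7A were 6.98 to 7.44 against 10.2 to 13.6 RPKM and those of WNT7B were 2.98 to 3.97 against 4.50 to 5.43 RPKM. The component was computed without these genes. DMSO and GW3965 libraries were on both sides, and the part of the component in the results was not tested beyond the fits without these libraries and with the component as a covariate. With it as a covariate, the differences of WNT7A and WNT7B were -0.18 and 0.17 (adjusted p = 0.444 and 0.528 in limma).

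**Figure D3:**
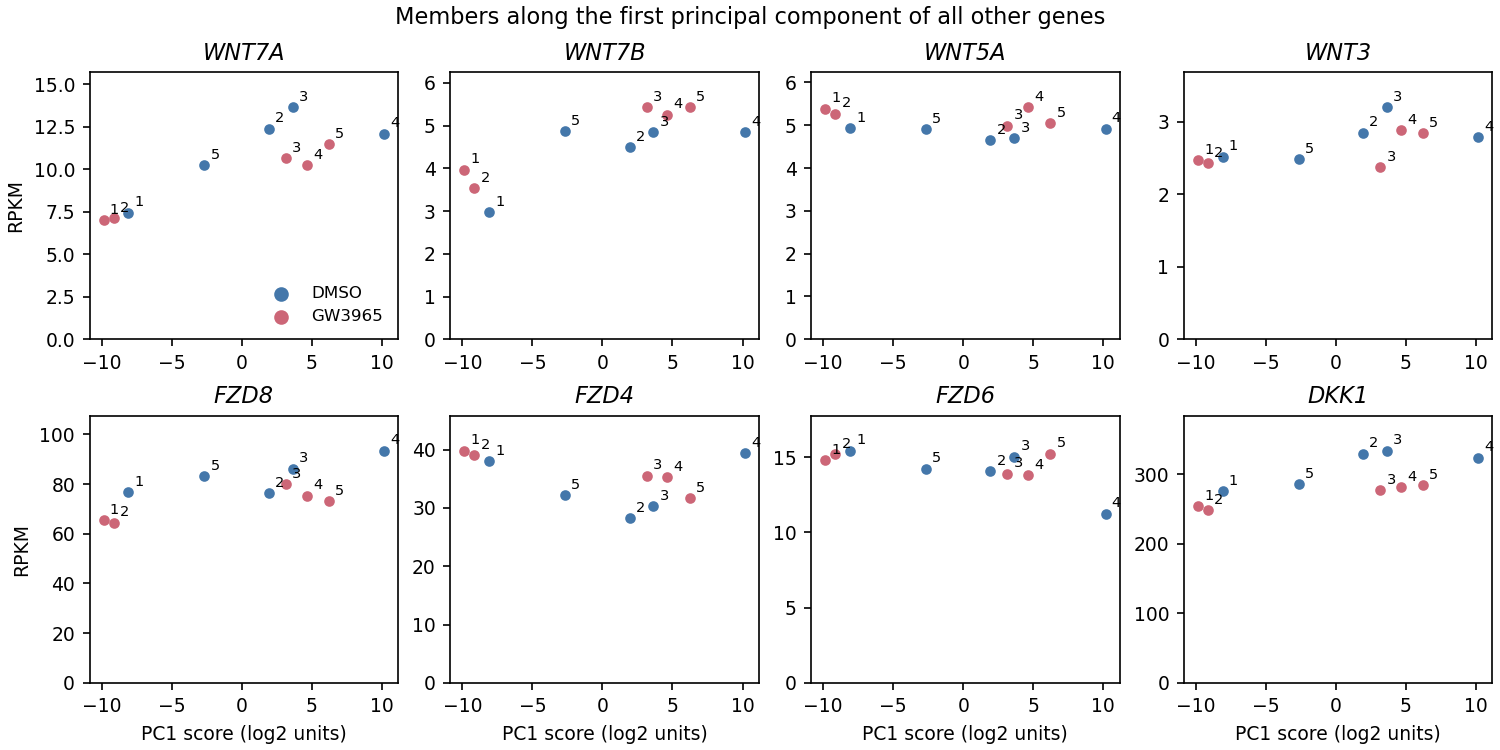
RPKM of 8 members in the 10 libraries against the score on the first principal component of other genes (5 DMSO in blue, 5 GW3965 in red, replicate numbers beside the points, vertical axes from 0). WNT7A and WNT7B are lowest in DMSO 1, GW3965 1 and GW3965 2 at the left end, while WNT5A stays between 4.65 and 5.43 RPKM along the axis.

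WNT3, a ligand of beta-catenin signalling at chr17:46762506-46833154, was at 2.77 ± 0.29 RPKM in DMSO and 2.60 ± 0.24 RPKM in GW3965 (SD, n = 5 each), a difference of -0.09 (SE 0.09, adjusted p = 0.924 in limma). WNT9A and WNT10B differed by 0.01 (SE 0.10) and 0.05 (SE 0.16), with adjusted p-values of 0.990 and 0.981 in limma. WNT4 and WNT2B, at 0.482 and 0.467 RPKM, were just below the filter and had overlapping groups. Both share exon sequence with a gene on the other strand, WNT2B with ST7L. WNT8B and WNT5B were at 0.0939 and 0.0821 RPKM, and WNT16, WNT11, WNT10A, WNT9B and WNT3A were between 0.0114 and 0.0464 RPKM. WNT1, WNT2, WNT8A and WNT6 had at most 3 reads in every library. WNT6 had none, which with 3 reads as the limit allows up to 0.0416 to 0.0582 RPKM in a library.

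The rest of the pathway was read from 6 lists of 100 genes, of which 72 were tested. None of the 72 passed the threshold (limma), 5 had an unadjusted p under 0.05 and 1 had groups that did not overlap, against 6.99% and 1.84% of all tested genes, so both counts were near the background. The median difference was 0.0062 on the log2 scale, and 40 were positive and 32 negative. By list, the genes with an unadjusted p under 0.05 were 1 of 13 surface co-receptors and their regulators, 0 of 5 secretion and other extracellular genes, 3 of 23 genes of cytoplasmic transduction, 1 of 15 nuclear effectors, 0 of 5 beta-catenin target genes and 0 of 11 planar cell polarity genes. With 6.99% of all tested genes at such a p, nothing is read from these counts of 3 or fewer. The highest and lowest differences named below are those over all 10 libraries.

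At the surface, LRP5 and LRP6, the co-receptors that DKK1 blocks, had means of 25.7 and 4.89 RPKM and differences of 0.0062 and 0.07. ROR1, a co-receptor of WNT5A, had the highest difference of all lists, 0.24 (SE 0.07, adjusted p = 0.431 in limma), and KREMEN2, which helps DKK1 to remove LRP6 from the surface, the lowest, -0.24 (SE 0.25, adjusted p = 0.924). RNF43, a ligase that removes Frizzleds, stood at 0.0213 RPKM while its relative ZNRF3 stood at 2.14 RPKM. PORCN, which attaches the lipid to WNTs, and WLS, which carries them to the surface, were at 2.26 and 6.75 RPKM and had differences of 0.14 and 0.09. Of the other secretion and extracellular genes, WIF1 and SOST were listed at 0 in every library, while DKKL1, TRABD2B and NOTUM stood at 0.976, 0.543 and 0.384 RPKM. IGFBP4, which binds growth factors and is known to block LRP6, was at 179 RPKM with a difference of -0.06 (SE 0.22).

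Inside the cell, CTNNBIP1, an inhibitor of beta-catenin binding to TCF factors, was the gene of the lists whose groups did not overlap, with means of 7.35 RPKM in DMSO and 6.66 RPKM in GW3965 and a difference of -0.14 (SE 0.06, adjusted p = 0.684 in limma). BTRC, part of the ligase that marks beta-catenin for degradation, differed by 0.19, the highest of its list, and CXXC5 by -0.18, the lowest. CTNNB1, which encodes beta-catenin, was at 26.8 RPKM with a difference of -0.0068. Of the nuclear factors, TCF7 differed by -0.23 (SE 0.10, adjusted p = 0.683 in limma) and BCL9L by 0.06, the ends of that list, and LEF1 stood at 0.0614 RPKM and was not tested. AXIN2, a target gene read as a sign of beta-catenin signalling, was at 0.546 RPKM in DMSO and 0.607 RPKM in GW3965, a difference of 0.11 (SE 0.20), the highest of the target genes, while TNFRSF19 had the lowest, -0.17. Without 1 library at a time AXIN2 was at 0.022 (without GW3965 library 5) to 0.20 (without GW3965 library 1). In the planar cell polarity list INTU was at 0.20 and SCRIB at -0.08, the highest and the lowest.

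**Figure D4:**
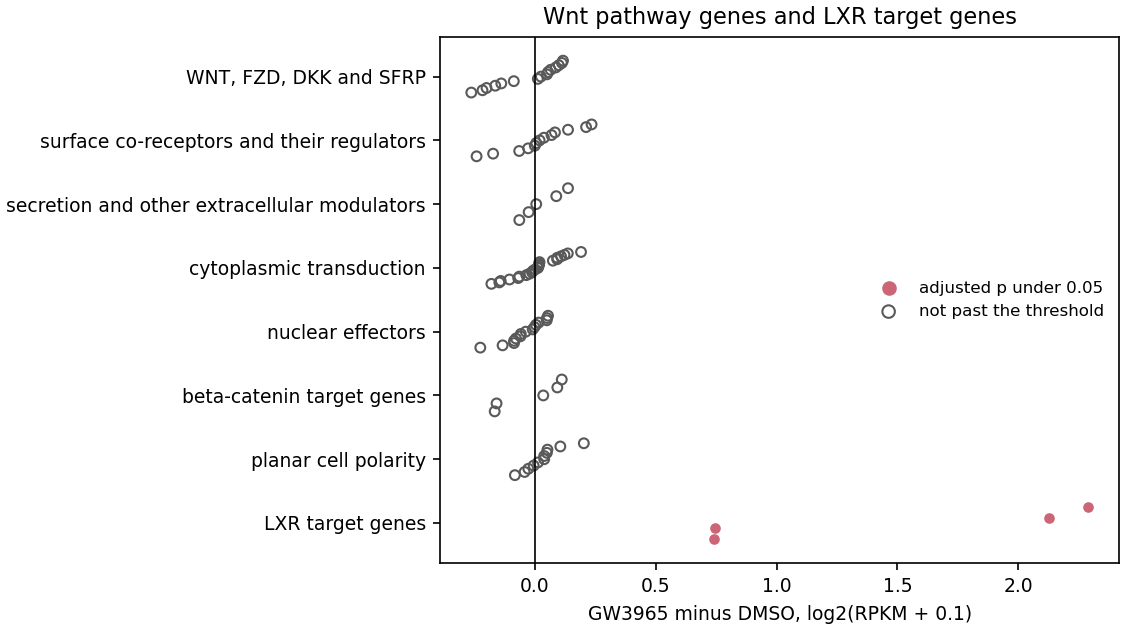
Differences between GW3965 and DMSO on the log2(RPKM + 0.1) scale, with 1 point per tested gene, of the 15 tested members, of 6 lists of Wnt pathway genes (72 tested) and of 4 LXR target genes. All pathway genes lie between -0.26 and 0.24 and none passed the threshold, while the LXR target genes (filled) lie between 0.74 and 2.29.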

How the data were processed

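Total RNA depleted of ribosomal RNA was sequenced as single reads of 50 bases. The sample records name polyA RNA. Per the submitters' processing notes, reads were processed with bcl2fastq 2.20.0.422, cutadapt, HISAT2 2.1.0, HTSeq 0.11.2 and DESeq2 1.22.2 on hg38, while the paper's methods name the mouse genome. All gene identifiers were human. The authors deposited RPKM values, 1 column per library, with a human annotation release not given in the sources used here. Of the values above 0, 99.99% were whole multiples of 1 read (relative tolerance 1e-07), and 4 genes were not solved. Whether reads were counted by strand is not stated, which bears on members that overlap other genes.

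The main test was limma 3.58.1 (R 4.3.3), with the prior variance as a trend of the level, applied to log2(RPKM + 0.1) of the 20402 genes that averaged 0.5 RPKM or more. P-values were two-sided and adjusted by Benjamini-Hochberg, and 0.05 was the threshold. The script was tested on simulated data. The component came from the 500 most variable genes that averaged 100 reads or more, as log2 of scaled reads plus 8, members left out. Coordinates are those of GENCODE 29. TLE5 was matched by its identifier.

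The members and gene lists were chosen with earlier results of these data known. Members and pathway genes were named where they passed the threshold, had groups that did not overlap, led or ended their family or list, or were AXIN2, LEF1, TCF7, LRP5, LRP6, PORCN or WLS. Other pathway genes (RNF43, ZNRF3, WIF1, SOST, DKKL1, TRABD2B, NOTUM, CTNNB1) were named after their values were seen. Whether same-numbered libraries were made together is not stated, and the main test did not pair them. Alternatives were 20 set with the design and 3 chosen after seeing the data.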

Additional observations from a re-analysis of the deposited data

Results flagged for a closer look

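Each group of 5 libraries was examined for a library far from the other 4, for the 15 tested members and for 16 tested pathway genes, those that led or ended a list, had groups that did not overlap or were chosen by name. Of 62 groups, 2 held one, and 3.1 are expected by chance, at 1 in 20. WNT7B in DMSO library 1 was the lowest of its group at 2.98 RPKM, against 4.50 to 4.88 RPKM in the other DMSO libraries, a gap of 0.834 of the whole range on the log2 scale. FZD5 in GW3965 library 5 was the lowest of its group at 1.79 RPKM, against 2.09 to 2.13 RPKM, a gap of 0.893 of the range.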

How the results depend on the processing

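The count of members past the threshold was 0 under every alternative but quantile normalization, where it was 1 (FZD8), and that of the pathway lists was 0 under all 23. The count of all genes past it was 32. It was 21 with no filter, 16 with the replicate block, 20 without a trend, 56 with library weights, 18 without the 3 libraries at one end of the component, 17 to 38 without 1 library each (17 to 21 without DMSO library 3 or GW3965 library 2, 3, 4 or 5), and, chosen after seeing the data, 64 with voom on the recovered reads and 155 with the component as a covariate. The cause was not tested. Same-numbered libraries had correlations of 0.149, -0.0488, 0.0386, 0.16 and -0.138, and 1 of 5 numbers correlated best with itself. These values cannot settle whether same-numbered libraries were made together, and the labels do not say. With the block SREBF1 and MYLIP had adjusted p-values of 0.0643 and 0.0724.

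Of the 15 tested members, 8 kept their direction throughout, DKK1, FZD8, FZD2, WNT5A, WNT7A, WNT3, FZD4 and FZD5. On the log2 scale, library weights turned WNT9A to -0.021 and FZD3 to -0.0008. Without the 3 libraries WNT9A was -0.093, FZD7 0.047, IGFBP4 0.037 and LRP5 -0.030. Without these and DMSO library 4, WNT9A was -0.062, WNT10B -0.0099, FZD6 -0.013, FZD3 -0.065, FZD7 0.11 and LRP5 -0.0015. With the component IGFBP4 was 0.023 and LRP5 -0.0013, and quantile normalization gave LRP5 -0.022. Without 1 library each, WNT7B was -0.033 to 0.20, WNT9A -0.043 to 0.058, WNT10B -0.032 to 0.10, FZD6 -0.011 to 0.10, FZD3 -0.047 to 0.11, FZD1 -0.037 to 0.078, IGFBP4 -0.22 to 0.044 and LRP5 -0.019 to 0.025. None of these differences passed the threshold. With 10 libraries, the 95% intervals limit what can be shown for each member. Of the members below 0.5 RPKM, WNT2B had 148 to 271 and WNT4 had 57 to 118 reads per library. The others had at most 36 reads in a library.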

Other observations

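Of the WNT genes, 8 lie in 4 pairs of neighbours in the genome (hg38, GENCODE). Distances are given between the outer bounds of the genes, not between starts of transcription. WNT3 and WNT9B on chromosome 17 are 47 bases apart and point away from each other, and their means over all libraries were 2.69 and 0.0157 RPKM. The windows before their RefSeq starts lie farther apart, at chr17:46818693-46818942 for WNT3 and chr17:46851333-46851582 for WNT9B. WNT9A and WNT3A on chromosome 1 are 59153 bases apart and were at 1.30 and 0.0114 RPKM. WNT10B and WNT1 on chromosome 12 are 6690 bases apart and were at 0.703 and 0.00895 RPKM. WNT6 and WNT10A on chromosome 2, 6130 bases apart and on the same strand, were listed at 0 and at 0.0272 RPKM. WNT10A had 28 reads in all libraries together, so both were near the limit of detection. In 3 of these 4 pairs, 1 gene was above the filter of 0.5 RPKM and the other below it.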
